A study of Bos taurus with 7 samples.

Results

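The insulin-like growth factor (IGF) system was examined in whole bovine follicles at the secondary (SF) and primary (PF) stages. Its 10 genes were taken from a named list of 2 ligands (*IGF1*, *IGF2*), 3 receptors (*IGF1R*, *IGF2R*, *INSR*), 4 binding proteins (*IGFBP2*, *IGFBP3*, *IGFBP4*, *IGFBP5*) and 1 protease (*PAPPA*), out of 23704 genes matched in the files. All 10 were found, and the values of their RefSeq transcript models were summed per gene. RNA sequencing covered 7 libraries, 3 of SF, in which several layers of granulosa cells surround the oocyte, and 4 of PF, with a single layer of cuboidal granulosa cells. Follicles of both stages were dissected mechanically from ovaries of Holstein Friesian dairy cows in their second year of life, obtained at an abattoir. They were pooled by class and left to recover briefly before lysis. The recovery medium held recombinant human insulin, transferrin, selenium and follicle-stimulating hormone. No group was treated further, and this exposure to insulin was common to both. Which animals contributed to a library is not stated in the labels or methods, and p-values here reflect the spread among these libraries, part of which may be technical. The study set PF replicate 4 aside as an outlier, and it is given apart below. Primordial follicles were not analysed here.

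IGF1 and IGF2 are secreted peptides that signal through IGF1R, a tyrosine kinase receptor related to the insulin receptor, INSR. IGF2R, also the cation-independent mannose 6-phosphate receptor, carries lysosomal enzymes and takes up IGF2 for degradation without a kinase of its own. Binding proteins hold the ligands in the extracellular space, and proteases such as PAPPA release them by cutting the binding protein. In antral follicles this system is known for its synergy with gonadotropins in granulosa and theca cells.

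Depth lay between 18788105 and 23764615 estimated counts per library. Levels are given in TPM, in which the read number is divided by transcript length and every library has the same total, so that genes can be set side by side. Marker lists checked the labelled content of whole follicles. The 12 granulosa markers summed to 2872 to 3653 TPM in SF, against 1137 to 1582 TPM in PF replicates 1 to 3. By the test described below 7 of them were higher in SF. *INHA* alone had 1023 to 1836 TPM in SF and 481 to 982 TPM in these PF libraries. *FOXL2*, *INHBB*, *HSD17B1* and *KITLG* overlapped between the groups. *WT1* went the other way, at 0.581 to 3.57 TPM in SF against 7.42 to 9.54 TPM in PF, but did not pass that test. The 12 oocyte markers summed to 212 to 1772 TPM in SF, against 2375 to 4753 TPM in PF, and 9 were lower in SF. Since each library is a pool of whole follicles, fewer cells of a type and less RNA per cell cannot be told apart. PF replicate 4 had 380 TPM of oocyte markers and 1198 TPM of granulosa markers. Its 12 stromal fibroblast markers reached 6210 TPM, against 241 to 550 TPM in SF and 429 to 636 TPM in the other PF libraries, and *COL1A1*, which encodes a chain of fibrillar collagen, stood at 644 TPM there against 4.95 to 7.40 TPM in PF replicates 1 to 3. Not all of the 12 were raised there. *DCN* was lower, at 168 TPM against 390 to 573 TPM in PF replicates 1 to 3, *OGN* and *MFAP5* were at 0, and *FBLN1* lay within the PF range. *CYP17A1*, the androgen-producing enzyme that defines theca cells, was at 0 in 6 of the 7 libraries. Other theca markers were not, and *CYP11A1* had 48.9 TPM or more in every library. The 6 theca markers summed to 299 to 412 TPM in SF and 166 to 252 TPM in PF replicates 1 to 3. In PF replicate 4 they reached 1515 TPM, mostly from *CYP11A1*, *STAR* and *HSD3B1* at 642, 382 and 348 TPM. *LHCGR* there, at 2.30 TPM, lay within the range of PF replicates 1 to 3, and *INSL3*, at 140 TPM, within that of SF. The 9 smooth muscle and pericyte markers of PF replicate 4 summed to 1052 TPM, against 225 to 264 TPM in SF and 72.6 to 160 TPM in PF replicates 1 to 3. Most of this was *ACTA2* (702 TPM) and *TAGLN* (260 TPM). *MYH11* was lower there, at 28.5 TPM against 48.1 to 86.0 TPM in PF replicates 1 to 3. *DES*, *NOTCH3* and *MCAM* lay within the range of those libraries.

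**Figure D1:**
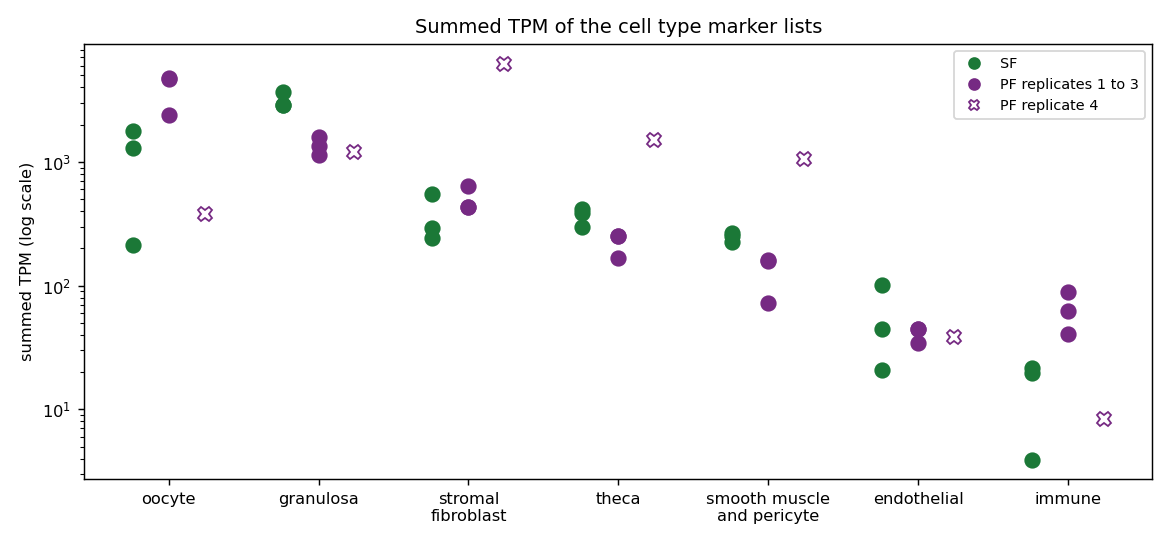
Summed TPM of 7 lists of cell type markers on a log axis, with SF in green, PF replicates 1 to 3 in filled purple and PF replicate 4 as an open purple cross. Granulosa markers reached 2872 TPM or more in each SF library and at most 1582 TPM in PF. PF replicate 4 stood apart in stromal fibroblast (6210 TPM), theca (1515 TPM), and smooth muscle and pericyte markers (1052 TPM).

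Both ligand genes were at the edge of detection in SF and PF. *IGF1*, the ligand made in response to growth hormone in many tissues, had 5, 4 and 5 estimated counts in SF replicates 1, 2 and 3, against 9, 5 and 5 in PF replicates 1, 2 and 3 and 1 in PF replicate 4. In TPM this was 0.0443, 0.0411 and 0.0459 in SF, against 0.0881, 0.0448 and 0.0522 in PF and 0.104 in PF replicate 4. In SF and in PF replicates 1 to 3 these levels were little above a floor of 3 counts, which equals 0.0239 to 0.0287 TPM for this gene, and the groups overlapped. In the 6 libraries compared all *IGF1* counts lay on 1 of its 9 transcript models, and the single count of PF replicate 4, below that floor of 3, lay on another, shorter one. *IGF2*, the ligand cleared by IGF2R, had 16 estimated counts (0.246 TPM) in SF replicate 1, against 0 in the other 6 libraries. In those a floor of 3 counts allows up to 0.0509 to 0.0569 TPM. Neither ligand gene received an adjusted p, so no difference in ligand RNA between SF and PF was detectable at this depth. Counts on transcript models without a match to a gene name are not included in these values.

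Of the 3 receptor genes *IGF2R* rose in SF, while the test called neither *IGF1R* nor *INSR*. *IGF2R* stood at 45.7, 52.3 and 36.6 TPM in SF replicates 1, 2 and 3, against 12.3, 16.4 and 25.6 TPM in PF replicates 1, 2 and 3. Every SF library was above every one of these PF libraries. PF replicate 4, at 41.6 TPM, was within the SF range. The means were 44.9 ± 7.89 TPM in SF and 18.1 ± 6.83 TPM in PF (SD, n = 3 each), a 2.48-fold difference. By the Wald test of DESeq2 over all genes, with p-values adjusted by Benjamini-Hochberg and called below 0.05, the log2 fold change of SF over PF was 1.34 ± 0.43 (SE; 95% interval 0.49 to 2.20, adjusted p = 0.016). In this fit 19.1% of the 15056 genes tested were called in either direction and 8.14% were called higher in SF. All counts of *IGF2R* lay on its single transcript model. The granulosa marker sums were also higher in SF and the oocyte marker sums lower, and their part in the difference was not tested.

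The call on *IGF2R* rested on the test and on single libraries. Its direction was the same in each alternative run, with log2 fold changes of 1.06 to 1.82 when 1 library was left out. The adjusted p of DESeq2 was 0.054 without SF replicate 1, 0.096 without SF replicate 2, 0.062 without PF replicate 1 and 0.0998 without PF replicate 2, and it was 0.37 once PF replicate 4 was included, at a log2 fold change of 0.87, in a fit that called 5.82% of genes. Limma on log2(TPM + 1) called 6.02% of genes and gave *IGF2R* an adjusted p of 0.064. The quasi-likelihood test of edgeR gave an adjusted p of 0.078 for *IGF2R* and called 0 of 14293 genes, with 3844 at an unadjusted p below 0.05 and a smallest adjusted p of 0.0525.

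*IGF1R*, the receptor that transmits both IGF signals, was at similar levels in the SF libraries and spread widely among the PF libraries. It had 5.15, 4.48 and 6.44 TPM in SF replicates 1, 2 and 3, against 27.7, 16.3 and 3.26 TPM in PF replicates 1, 2 and 3 and 5.95 TPM in PF replicate 4. PF replicates 1 and 2 were above every SF library, and PF replicate 3 was below all of them. The means were 5.36 ± 0.996 TPM in SF and 15.8 ± 12.2 TPM in PF (SD, n = 3 each). The log2 fold change of SF over PF was -1.30 ± 0.69 (SE; 95% interval -2.64 to 0.05), and DESeq2 did not call it (adjusted p = 0.18). Without PF replicate 3 it was called, at -1.76 (DESeq2 adjusted p = 0.0023). PF replicates 1 and 2 and SF replicate 1 also have library numbers below 40, a number in the library names whose meaning the labels do not state. Among these, with SF replicate 1 the only SF library, the log2 difference of SF and PF was -2.10. Among the libraries numbered above 40, without PF replicate 4, PF replicate 3 was the only PF library and the difference was 0.74. The direction thus differed between the number ranges, each of which has 1 library on one side. *IGF1R* had 3 transcript models, of which the curated one held 58.0% to 100% of its TPM.

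*INSR*, the insulin receptor, had 11.3, 27.5 and 31.5 TPM in SF replicates 1, 2 and 3, against 10.05, 13.4 and 16.7 TPM in PF replicates 1, 2 and 3 and 5.97 TPM in PF replicate 4. SF replicates 2 and 3 were above all PF libraries, and SF replicate 1 lay within the PF range. The means were 23.4 ± 10.7 TPM in SF and 13.4 ± 3.34 TPM in PF (SD, n = 3 each), and the log2 fold change of 0.88 ± 0.53 (SE; 95% interval -0.16 to 1.92) was not called by DESeq2 (adjusted p = 0.24). Among library numbers below 40 the log2 difference was -0.059, and above 40 it was 0.82, again with 1 library on one side of each range. Its longest model held 56.7% to 76.6% of the TPM of the gene in the 6 libraries compared, and 21.9% in PF replicate 4.

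**Figure D2:**
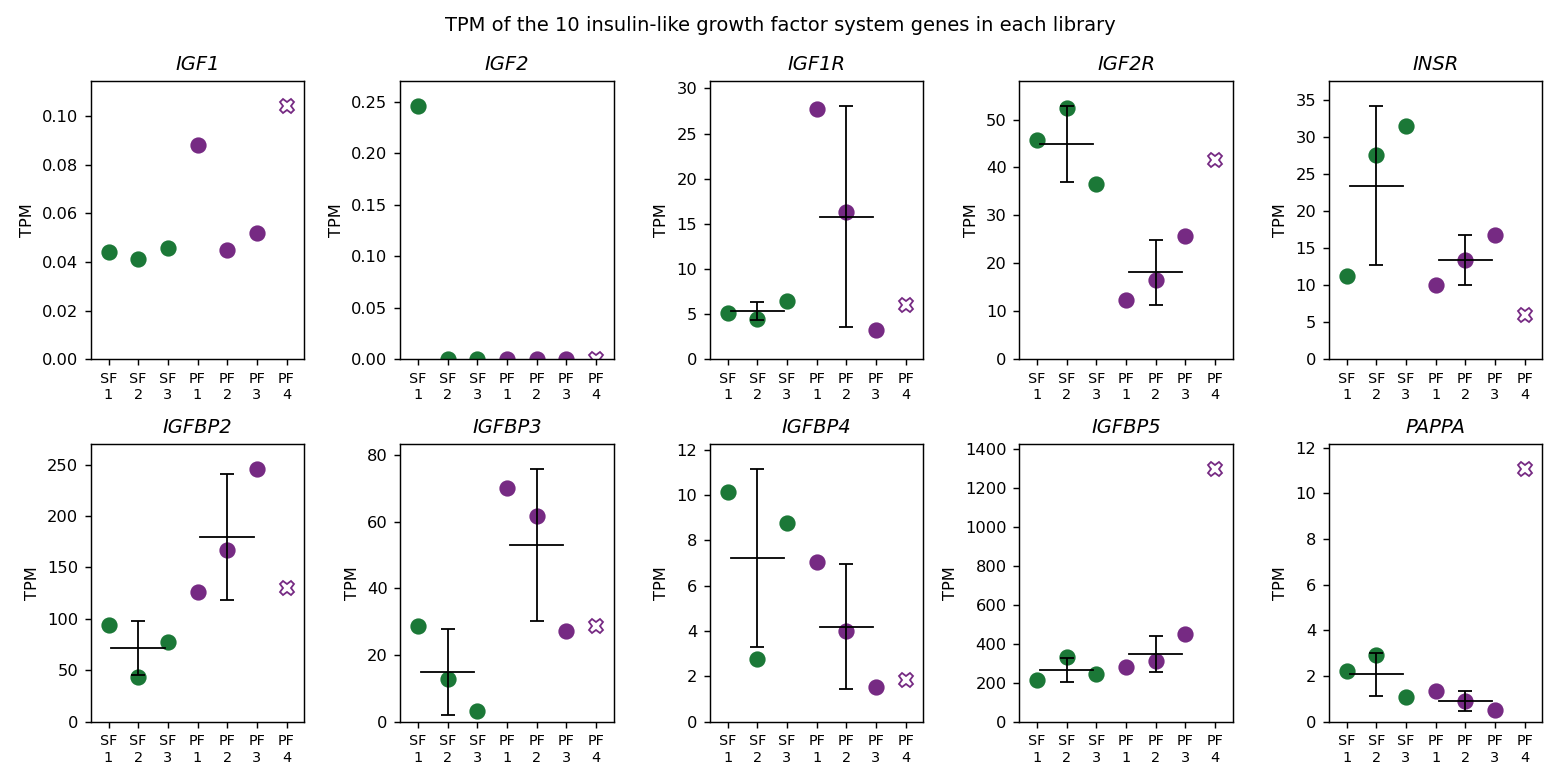
TPM of each of the 10 genes by library, with SF in green, PF replicates 1 to 3 in filled purple and PF replicate 4 as an open cross, each panel on its own axis; bars are the mean and SD of 3 libraries and are left out for the ligand genes, which had too few counts. *IGF2R* was at 36.6 TPM or more in SF and at most 25.6 TPM in PF replicates 1 to 3, and PF replicate 4 stood apart in *IGFBP5* at 1295 TPM and in *PAPPA* at 11.1 TPM.

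Within a library the balance of the receptor genes also varied. Summed TPM of the 3 receptor genes was 73.7 ± 11.1 in SF and 47.3 ± 2.44 in PF (SD, n = 3 each). *IGF2R* made up 61.6 ± 12.2% of this sum in SF and 38.8 ± 16.1% in PF, *IGF1R* made up 7.42 ± 1.83% in SF and 32.6 ± 24.2% in PF, and *INSR* made up 31.0 ± 12.1% in SF and 28.6 ± 8.31% in PF. The ratio of *IGF2R* to *IGF1R* TPM was 8.87, 11.7 and 5.68 in SF replicates 1, 2 and 3, against 0.444, 1.00 and 7.87 in PF replicates 1, 2 and 3 and 6.99 in PF replicate 4. PF replicate 3 lay within the SF range, and so did PF replicate 4. On the log2 scale the ratio was 3.07 ± 0.52 in SF and 0.60 ± 2.14 in PF (SD, n = 3 each), and the difference of 2.46 had p = 0.2 by an exact permutation test, two-sided, for which the 20 splits allow no p below 0.1. The log2 ratio of *INSR* to *IGF1R* was 2.01 ± 0.78 in SF and 0.20 ± 1.96 in PF, a difference of 1.81 (exact permutation p = 0.3, same test).

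**Figure D3:**
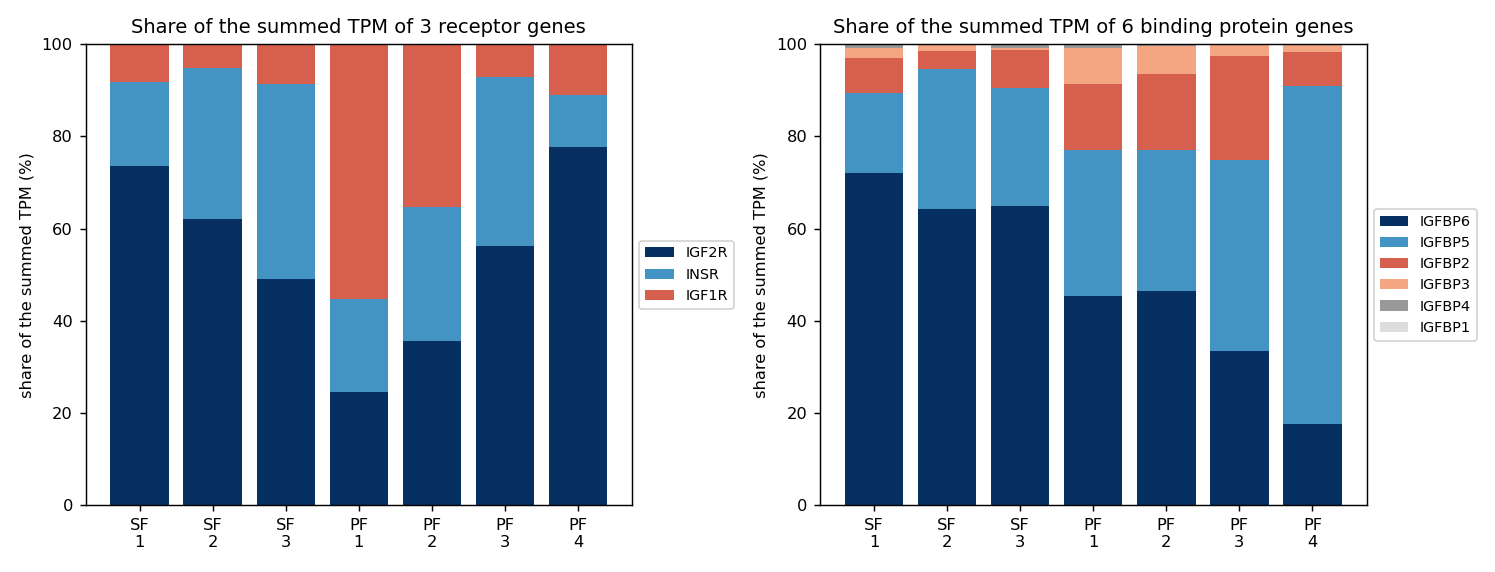
Share of the summed TPM held by each of 3 receptor genes (left) and by each of 6 genes of high-affinity binding proteins (right) in each library, in percent. PF replicates 1 and 2 held the largest shares of *IGF1R*, *IGFBP6* took 64.3% or more of the binding protein TPM in SF and at most 46.5% in PF, and in PF replicate 4 *IGFBP5* took 73.2%.

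Binding protein RNA was far more abundant than ligand RNA, and the test called none of the 4 binding protein genes on the list. *IGFBP2*, a binding protein abundant in fetal tissue and in granulosa cells of several mammals, had 94.1, 43.1 and 77.8 TPM in SF replicates 1, 2 and 3, against 126, 167 and 246 TPM in PF replicates 1, 2 and 3 and 129.7 TPM in PF replicate 4. Every SF library was below every PF library, PF replicate 4 included. Of the 10 genes this held for *IGFBP2* alone, and *IGF2R* was the only one with SF above PF replicates 1 to 3, whereas over all genes tested 32.7% did not overlap between these groups, 18.5% with SF below and 14.3% with SF above. *IGFBP2* averaged 71.7 ± 26.0 TPM in SF and 179.6 ± 60.8 TPM in PF (SD, n = 3 each), and the log2 fold change was -1.24 ± 0.52 (SE; 95% interval -2.26 to -0.22, DESeq2 adjusted p = 0.075). It was called without PF replicate 1 (DESeq2 adjusted p = 0.049, log2 fold change -1.52). Among library numbers below and above 40 the log2 difference was -0.64 and -2.02, again with 1 library on one side of each range.

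*IGFBP3*, the main IGF carrier of serum, had 28.7, 12.8 and 3.07 TPM in SF replicates 1, 2 and 3, against 70.3, 61.7 and 27.3 TPM in PF replicates 1, 2 and 3 and 28.6 TPM in PF replicate 4. The groups overlapped only through SF replicate 1, which was just above PF replicate 3. Its means were 14.9 ± 12.9 TPM in SF and 53.1 ± 22.7 TPM in PF (SD, n = 3 each), with a log2 fold change of -1.71 ± 0.73 (SE; 95% interval -3.14 to -0.29, DESeq2 adjusted p = 0.079). Without SF replicate 1 it was called at -2.65 (DESeq2 adjusted p = 0.0012). For both *IGFBP2* and *IGFBP3* all counts lay on a single transcript model. The oocyte marker sums, given above, were also lower in SF. In PF replicate 4 that sum was 380 TPM, within the SF range. *IGFBP2* and *IGFBP3* in this library lay within the range of PF replicates 1 to 3. The part of the oocyte markers in these values was not tested.

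*IGFBP4*, the binding protein that PAPPA cleaves in antral follicles, had 10.1, 2.77 and 8.77 TPM in SF replicates 1, 2 and 3, against 7.06, 3.98 and 1.54 TPM in PF replicates 1, 2 and 3 and 1.82 TPM in PF replicate 4. The libraries of SF and PF were interleaved. Its log2 fold change was 1.01 ± 0.77 (SE; 95% interval -0.51 to 2.52, DESeq2 adjusted p = 0.39), on 45 to 343 estimated counts per library in the 6 libraries.

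*IGFBP5*, which also binds to extracellular matrix, had the highest level of the 10 genes, at rank 525 of all genes by mean TPM. It had 214, 333 and 243 TPM in SF replicates 1, 2 and 3, against 279, 311 and 449.6 TPM in PF replicates 1, 2 and 3. SF replicate 2 lay within the PF range and the other SF libraries below it. The means were 263 ± 62.1 TPM in SF and 346 ± 90.8 TPM in PF (SD, n = 3 each), and the log2 fold change was -0.49 ± 0.40 (SE; 95% interval -1.27 to 0.29, DESeq2 adjusted p = 0.42). PF replicate 4 stood at 1295 TPM, 3.74-fold the mean of the other PF libraries. Its sums of stromal fibroblast, theca, and smooth muscle and pericyte markers were also the highest, at 6210, 1515 and 1052 TPM. Not every marker of these lists was raised there. The part of these markers in its level was not tested. The TPM of *IGFBP5* was split between 2 transcript models, of which the shorter, curated one held 50.9% to 64.1% of it in the 7 libraries. Most estimated counts lay on the longer one. The shorter held 1950 of 10356 counts in SF replicate 1 and 7277 of 61695 in PF replicate 4. *IGFBP2* and *IGFBP5* are neighbors in the ARS-UCD2.0 annotation, and so are *IGFBP3* and *IGFBP1*, the last of which had no count in any library.

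By Pearson r of log2(TPM + 1) over the 7 libraries, the 5 genes most like *IGFBP5* among 13396 were *COG3* (0.984), *DDX19B* (0.973), *ARHGEF12* (0.966), *SPRY2* (0.962) and *PHETA2* (0.961). All 5 were also highest in PF replicate 4, and the libraries share composition and processing, so the values are a description. Over the 6 libraries without it r was 0.929 for *COG3*, 0.808 for *DDX19B*, 0.766 for *ARHGEF12*, 0.715 for *SPRY2* and 0.895 for *PHETA2*.

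*PAPPA*, the metalloprotease that frees IGF from binding proteins, was low in SF and in PF replicates 1 to 3. It had 2.20, 2.92 and 1.09 TPM in SF replicates 1, 2 and 3, against 1.35, 0.895 and 0.497 TPM in PF replicates 1, 2 and 3. SF replicates 1 and 2 were above these PF libraries, and SF replicate 3 was below PF replicate 1. The means were 2.07 ± 0.923 TPM in SF and 0.914 ± 0.426 TPM in PF (SD, n = 3 each), with a log2 fold change of 1.30 ± 0.55 (SE; 95% interval 0.23 to 2.37, DESeq2 adjusted p = 0.077). Without SF replicate 3 it was called (DESeq2 adjusted p = 0.028, log2 fold change 1.60). PF replicate 4 had 11.1 TPM, 12.1-fold the mean of the other PF libraries and above every SF library. With this library kept, the log2 fold change of SF over PF turned to -0.82, and it received no adjusted p.

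Of the 10 genes, 8 received an adjusted p, of which 1 was called higher in SF, 0 were called lower, against 11.0% of all genes tested, and 7 were not called by DESeq2. At an unadjusted p below 0.05 there were 4 (*IGF2R*, *IGFBP2*, *IGFBP3* and *PAPPA*), against 31.8% of all genes tested. The median log2 fold change of the 8 genes was 0.19, against 0.02 for all genes. The 1 call among these 8 genes is to be read against the 19.1% called over all genes.

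**Figure D4:**
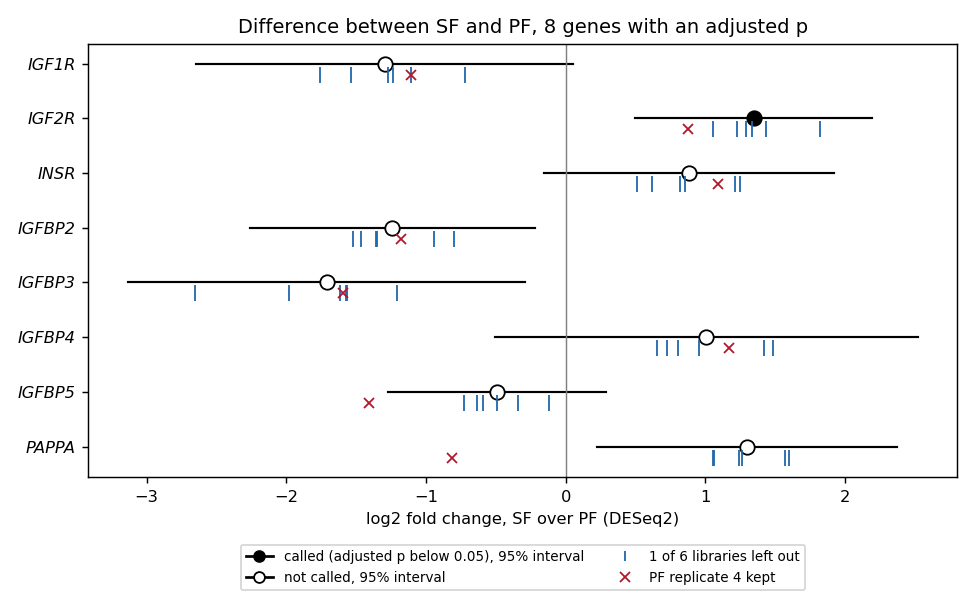
Log2 fold change of SF over PF with its 95% interval for the 8 genes with an adjusted p (filled where called), with the values after leaving out 1 library as blue ticks and with PF replicate 4 kept as red crosses. *IGF2R* at 1.34 is the only filled point, and keeping PF replicate 4 moved *PAPPA* to -0.82.

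Beyond the 10 genes, 44 further genes of the pathway were listed, of which 43 were found and 37 received an adjusted p. DESeq2 called 5 of them higher in SF (*IRS1*, *AKT2*, *SOS2*, *IGFBP6* and *AKT1*) and 4 lower in SF (*IGF2BP1*, *IGF2BP3*, *IGFBPL1* and *IGF2BP2*), against 8.14% called higher and 11.0% called lower over all genes. The median log2 fold change over the 37 was 0.26, against 0.02 for all genes. The 28 uncalled genes had log2 fold changes of -2.87 to 2.04 and DESeq2 adjusted p of 0.053 to 0.98.

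The 3 genes of the IGF2 mRNA-binding proteins, which bind and stabilize many transcripts in the cytoplasm, all fell in SF. *IGF2BP1* had 1.00, 0 and 0 TPM in SF replicates 1, 2 and 3, against 13.4, 8.12 and 4.28 TPM in PF replicates 1, 2 and 3 and 0 in PF replicate 4. *IGF2BP3* had 7.05, 9.83 and 1.25 TPM in SF, against 55.2, 28.7 and 29.95 TPM in PF and 2.85 TPM in PF replicate 4. *IGF2BP2* had 7.23, 9.02 and 1.90 TPM in SF, against 30.9, 20.3 and 15.8 TPM in PF and 6.35 TPM in PF replicate 4. For all 3 genes the SF libraries and PF replicate 4 were below each of PF replicates 1 to 3. The log2 fold changes of SF over PF were -4.52 ± 1.61 for *IGF2BP1* (DESeq2 adjusted p = 0.031), -2.58 ± 0.66 for *IGF2BP3* (0.0017) and -1.81 ± 0.55 for *IGF2BP2* (0.0091). *IGF2BP3* was called in each of 6 fits with 1 library left out. *IGF2BP2* was not called without PF replicate 1 (DESeq2 adjusted p = 0.080), and *IGF2BP1* was called only without SF replicate 1 or SF replicate 3. With PF replicate 4 included none of the 3 was called (adjusted p of DESeq2 0.12 to 0.26). The oocyte marker sums had the same order, lower in SF and in PF replicate 4 than in PF replicates 1 to 3, and their part in these differences was not tested.

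Of the 5 genes that rose, 4 act in the cell downstream of the receptors, and most such genes on the list were not called. *IRS1*, the adaptor that both receptor kinases phosphorylate, had 7.40, 7.77 and 14.6 TPM in SF replicates 1, 2 and 3, against 1.40, 2.88 and 5.24 TPM in PF replicates 1, 2 and 3 and 12.2 TPM in PF replicate 4. *AKT2*, a kinase downstream of phosphoinositide 3-kinase, had 6.45, 14.1 and 14.7 TPM in SF, against 2.75, 2.01 and 5.75 TPM in PF and 14.8 TPM in PF replicate 4. Both were higher in every SF library than in PF replicates 1 to 3, while PF replicate 4 was as high as the SF libraries. The log2 fold change was 1.70 ± 0.65 for *IRS1* (DESeq2 adjusted p = 0.0496) and 1.69 ± 0.64 for *AKT2* (0.044). With 1 library left out *IRS1* and *SOS2*, which encodes an exchange factor of Ras, were called only without PF replicate 3, and *AKT2* only without SF replicate 1 or PF replicate 3. *AKT1* lost its call without SF replicate 2, PF replicate 1 or PF replicate 2 (DESeq2 adjusted p = 0.057, 0.095 and 0.054). With PF replicate 4 kept none of these 4 genes was called. The granulosa marker sums were also higher in SF, with 1198 TPM in PF replicate 4, and their part in these differences was not tested.

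*IGFBP6*, a binding protein with a preference for IGF2, was the most abundant of the high-affinity binding protein genes in SF, and was singled out after its values were seen. It had 896, 705 and 615 TPM in SF replicates 1, 2 and 3, against 399.7, 472 and 366 TPM in PF replicates 1, 2 and 3 and 314 TPM in PF replicate 4. All SF libraries were above all 4 PF libraries. The log2 fold change was 0.95 ± 0.27 (SE; 95% interval 0.42 to 1.48, DESeq2 adjusted p = 0.0053), and it was called in each of 6 fits with 1 library left out and also once PF replicate 4 was included (adjusted p of DESeq2 0.0058). The quasi-likelihood test of edgeR gave *IGFBP6* an adjusted p of 0.067, and no limma fit called it. Among the 6 genes *IGFBP1* to *IGFBP6* it made up 72.1%, 64.3% and 64.9% of the summed TPM in SF, against 45.3%, 46.5% and 33.5% in PF and 17.7% in PF replicate 4. The share of *IGFBP2* was 7.57%, 3.93% and 8.21% in SF, against 14.3%, 16.5% and 22.5% in PF, and 7.33% in PF replicate 4. The granulosa marker sums were likewise higher in SF, and their part was not tested. The summed TPM of the 6 genes ranged from 948 to 1242 in SF and from 882 to 1090 in PF replicates 1 to 3, with 1769 in PF replicate 4.

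*IGFBPL1*, a protein related to the binding proteins, was lower in SF at 2.15, 3.20 and 0.756 TPM in replicates 1, 2 and 3, against 12.3, 4.16 and 10.2 TPM in PF replicates 1, 2 and 3 and 3.85 TPM in PF replicate 4. Its log2 fold change was -1.98 ± 0.59 (DESeq2 adjusted p = 0.0076). It was also called once PF replicate 4 was included (adjusted p of DESeq2 0.0078), a library that lay between the SF and the other PF libraries. It was not called without PF replicate 1 (DESeq2 adjusted p = 0.052).

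**Figure D5:**
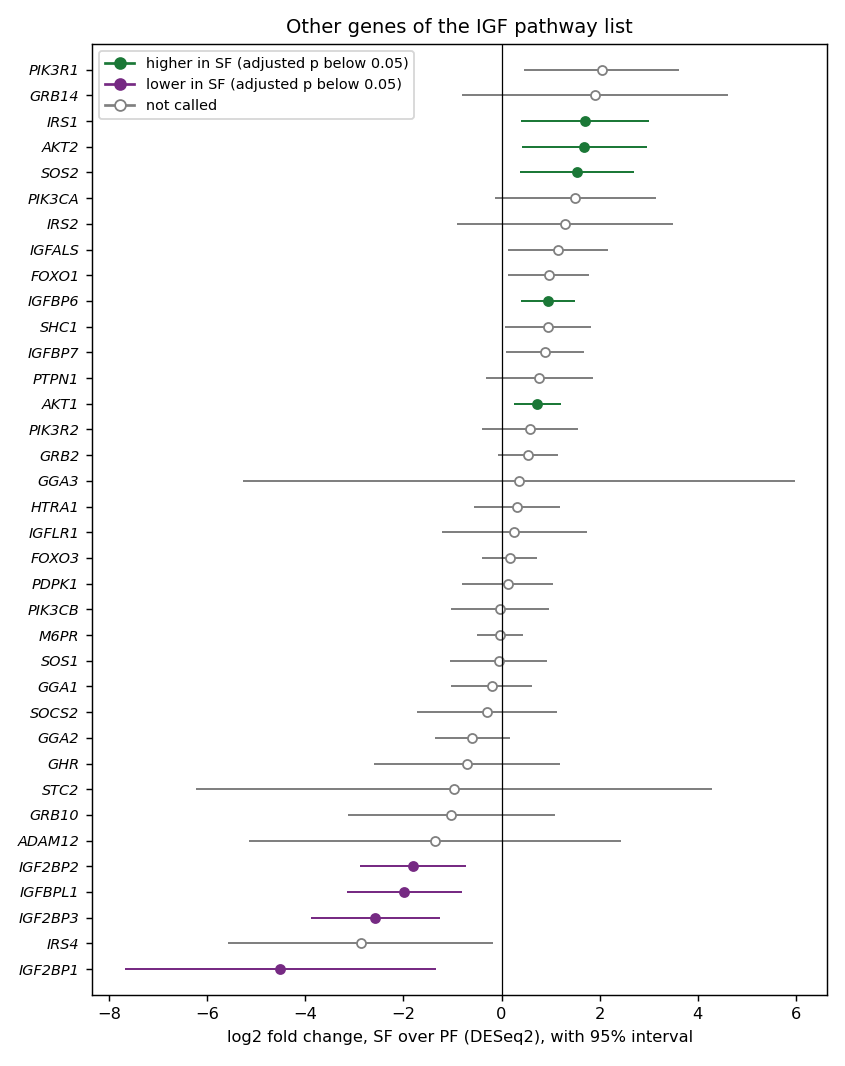
Log2 fold change of SF over PF with its 95% interval for 36 of the 37 further pathway genes that received an adjusted p, sorted by value, with those called higher in SF in green, lower in SF in purple and uncalled in grey. The 4 genes called lower include the 3 *IGF2BP* genes, and the 5 called higher lie between 0.73 (*AKT1*) and 1.70 (*IRS1*).

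The most abundant of the uncalled pathway genes was *IGFBP7*, which binds IGF weakly, at 1514 ± 371 TPM in SF and 851 ± 226 TPM in PF (SD, n = 3 each; DESeq2 adjusted p = 0.095). *PIK3R1*, the regulatory subunit of phosphoinositide 3-kinase, had 242 ± 220 TPM in SF, with 65 to 488 TPM across its libraries, and 63.6 ± 33.0 TPM in PF (DESeq2 adjusted p = 0.053). The adaptor *GRB2* had 100.5 ± 19.3 TPM in SF and 75.7 ± 5.41 TPM in PF (0.21). *GGA2*, which sorts mannose 6-phosphate receptors in the Golgi, had 59.4 ± 18.3 TPM in SF and 97.8 ± 36.1 TPM in PF (0.27). Intervals of the log2 fold change were 0.12 to 1.67, 0.48 to 3.60, -0.06 to 1.13 and -1.33 to 0.14 for these 4 genes in the same order. *STC1*, an inhibitor of PAPPA chosen after its values were seen, had 14.7, 18.0 and 136 TPM in SF replicates 1, 2 and 3, against 0, 6.05 and 7.35 TPM in PF replicates 1, 2 and 3 and 21.96 TPM in PF replicate 4, and received no adjusted p because of its spread within a group.

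PF replicate 4 differed from the other PF libraries in several genes of the system, secreted and intracellular. Beside *IGFBP5* and *PAPPA*, *HTRA1*, a secreted serine protease that cleaves IGFBP5, stood at 993 TPM there, against 28.3 to 63.5 TPM in PF replicates 1 to 3 and 36.2 to 67.1 TPM in SF. *ADAM12*, a metalloprotease with activity on IGFBP3 and IGFBP5, was at 53.3 TPM there, against 0 to 2.75 TPM in PF replicates 1 to 3 and 0.0212 to 1.52 TPM in SF. *GRB2* was at 212 TPM there, against 69.5 to 79.5 TPM in PF replicates 1 to 3, and *GRB10*, an adaptor that inhibits both receptor kinases, was at 21.6 TPM against 1.89 to 3.81 TPM. These genes were singled out after their values were seen, and neither *HTRA1* nor *ADAM12* was called between SF and PF (DESeq2 adjusted p = 0.67 and 0.68). By contrast *IGFBP2*, *IGFBP3* and *IGFBP4* in PF replicate 4, at 129.7, 28.6 and 1.82 TPM, lay within the range of PF replicates 1 to 3. The stromal fibroblast, theca, and smooth muscle and pericyte markers of this library are given above, and their part in these levels was not tested.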

How the data were processed

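The deposited tables, one for each library, give every RefSeq transcript an estimated count, a TPM and its effective length. The study amplified cDNA by SMART-Seq v4, which marks neither strand nor molecule, and its reads were trimmed (Trim Galore) and quantified with Salmon on the bovine ARS-UCD1.3 transcriptome. Salmon divides reads that fit several transcripts, so counts need not be whole. Of 76123 transcripts, 50205 (66.0%) matched 23704 genes by accession in a RefSeq table of ARS-UCD2.0, used for names and neighbors only. The unmatched ones held 9.71% to 10.7% of counts and were left out. No sequences were read.

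Counts were summed per gene and rounded, whereas the study used tximport for this step. They were compared by the Wald test in DESeq2 1.42.0 (R 4.3.3), the test of the study, on 3 SF against 3 PF libraries without PF replicate 4. Intervals are log2 fold change ± normal quantiles at 95%. TPM were summed per gene with Python 3.11.15 (numpy 2.4.6, pandas 2.3.3, scipy 1.17.1) and plotted with matplotlib 3.10.9. Alternatives were edgeR 4.0.16, limma 3.58.1 on log2(TPM + 1) or log2(TPM + 0.1) with a filter of 1 TPM in at least 3 libraries or none, TMM factors, an average transcript length offset, 10 counts in at least 3 libraries, PF replicate 4 kept, a replicate block, library number as covariate and each library left out. Differences within library numbers were added after seeing the data, and each number range has 1 library on one side. Scripts were tested on simulated data. No libraries of a group were duplicates (chi-square per degree of freedom 97.9 to 629). Floors cover counting error only.

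The named genes were the 10 of the list, the called genes of the pathway list with values for the 6 of largest absolute log2 fold change, the 4 uncalled ones of highest TPM, and 5 genes most like the most abundant of the 10. Genes and lists were chosen with earlier results of these data known. Of the pathway list, 1 gene is counted but not reported here by name.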

Additional observations from a re-analysis of the deposited data

Results flagged for a closer look

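Among the 4 PF libraries, 2 of the 9 genes of the list with any PF count had 1 library far from the others by Dixon's test at the 95% level on TPM. *IGFBP5* stood at 1295 TPM in PF replicate 4, against 279 to 449.6 TPM in the other 3 libraries, a gap of 0.832 of the group's range. *PAPPA* stood at 11.1 TPM in PF replicate 4, against 0.497 to 1.35 TPM, a gap of 0.919. Past the same critical value were 8 of 41 genes of the pathway list, 5 of them in PF replicate 4 (*HTRA1*, *ADAM12*, *GRB2*, *GRB10* and *PDPK1*), and 12.2% of all genes tested, 5.83% in PF replicate 4, while chance gives about 1 in 20 groups. On log2(TPM + 1) the gaps were 0.689 and 0.784, and neither gene was past the critical value. The study had set this library aside, and 1 library gives no replicate of its levels.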

How the results depend on the processing

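The 2876 genes called by DESeq2 were 0 with edgeR (3844 at an unadjusted p below 0.05), 792 with limma on log2(TPM + 1), 2 on log2(TPM + 0.1), 0 without the TPM filter, 858 with PF replicate 4 kept, and 1887 (without PF replicate 2) to 3947 (without PF replicate 3) with 1 library left out. The 1 gene of the list called was 0 with edgeR, 0 with each of 3 limma fits and 0 with PF replicate 4 kept, 3 with the library number as a covariate (*IGF2*, *IGF2R* and *IGFBP5*, where *IGF2* rests on the 16 counts of 1 library) and 0 to 2 with 1 library left out. The 9 called pathway genes were 0 with edgeR, 2, 0 and 0 with the limma fits, 2 with PF replicate 4 kept and 3 (without PF replicate 1) to 13 (without PF replicate 3) with 1 library left out. TMM factors, the length offset and the count filter called 1 gene of the list each. Directions turned for *IGF1R* above library number 40 (0.74), for *INSR* below 40 (-0.059) and for *PAPPA* with PF replicate 4 kept (-0.82). The log2 ratios differed by 1.58 to 3.65 (*IGF2R* to *IGF1R*) and by 0.98 to 2.89 (*INSR* to *IGF1R*) with 1 library left out. With the replicate number as a block, 4077 genes, 4 of the list (*IGF2R*, *IGFBP2*, *IGFBP3*, *INSR*) and 16 pathway genes were called, but the labels give no pairing. Deviations of same-numbered libraries correlated at 0.256, -0.0373 and 0.396, the last the highest of all pairs. Those of different numbers correlated at -0.424 to 0.261. SF replicate 1 was about as close to PF replicate 1 (0.256) as to PF replicate 2 (0.261). The cause of these changes was not tested. With 3 libraries a group, changes near the spread of *IGF1R* or *IGFBP4* in these libraries could be missed, and the ligand genes were too low to compare.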

Other observations

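Negative regulators of the pathway were also measured. *SOCS3*, an inducible inhibitor of cytokine and insulin signaling, had 70.1, 138.7 and 110.1 TPM in SF replicates 1, 2 and 3, against 2.69, 4.31 and 108.9 TPM in PF replicates 1, 2 and 3 and 42.4 TPM in PF replicate 4, and received no adjusted p from DESeq2. PF replicate 3 was at the SF level, and the other PF libraries were below it. Without PF replicate 3 it was called (DESeq2 adjusted p = 4.4e-24), and the other fits with 1 library left out gave adjusted p of 0.70 and 0.71 (without PF replicates 1 and 2) or none. It was also called in the fits with the replicate block or with library number as covariate. *GRB14*, an adaptor that inhibits the insulin receptor, had 9.72, 6.79 and 7.17 TPM in SF, against 1.75, 0 and 4.33 TPM in PF and 4.32 TPM in PF replicate 4, with a log2 fold change of 1.91 (95% interval -0.78 to 4.60, DESeq2 adjusted p = 0.35). Both genes were chosen after their values were seen. *SOCS2*, of the same family as *SOCS3*, and *GRB10* went the other way, with log2 fold changes of -0.29 and -1.03. Neither was called (DESeq2 adjusted p = 0.83 and 0.54).

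Genes next to *PAPPA* and *IGF1R* in the ARS-UCD2.0 annotation were measured too. They were chosen from the neighbors of the 10 genes after the values were seen. *TNC*, which encodes a matrix glycoprotein and lies next to *PAPPA*, was at 0 to 0.438 TPM in SF, 0 in PF replicates 1 to 3 and 328 TPM in PF replicate 4. *ASTN2*, on the other side of *PAPPA*, had 8.42 to 26.6 TPM in SF, 10.9 to 81.7 TPM in PF replicates 1 to 3 and 1.88 TPM in PF replicate 4. *SYNM*, next to *IGF1R*, had 1.76, 2.62 and 1.22 TPM in SF replicates 1, 2 and 3, against 11.4, 8.68 and 2.38 TPM in PF replicates 1, 2 and 3 and 1.36 TPM in PF replicate 4. *PGPEP1L*, on the other side of *IGF1R*, was at 0 in every library.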
